A study of Rattus norvegicus with 12 samples.

Results

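The genes described are 8 targets of the transcription factors that answer to foreign chemicals and to oxidants. Cyp1a1, Cyp1b1 and Tiparp were taken as targets of the aryl hydrocarbon receptor (AhR), and Nqo1, Srxn1, Gclc, Gclm and Txnrd1 as targets of Nrf2. All probe sets carrying 1 of these symbols in the platform annotation were used, 13 of the 20826 probe sets with a single symbol, which stand for 14217 genes. The AhR genes had 4 of these probe sets and the Nrf2 genes 9.

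Expression was measured in whole lungs of 12 male Sprague-Dawley rats on Affymetrix rat genome arrays, with 1 array per lung and 3 lungs in each of 4 groups. Congestive heart failure (CHF) had been produced by a clip on the ascending aorta of juvenile rats, which loads the left heart and, per the labels, leads to pulmonary hypertension, and sham rats had the operation without the clip. Ketotifen, a mast cell stabilizer that also blocks the histamine H1 receptor, was given to 1 arm of each surgical group in the drinking water at 1 mg per kg per day, beginning the day after banding. The sample labels call the other arm placebo, and the design text calls it untreated. The groups are thus sham placebo, CHF placebo, sham ketotifen and CHF ketotifen, all examined 9 weeks after surgery. By its title, the series asks what mast cells do in this form of pulmonary hypertension. Values are deposited log2 expression values, so a difference of 1 is a doubling.

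The AhR is a receptor in the cytoplasm, held there with Hsp90, that binds planar aromatic compounds and some metabolites of tryptophan. It then enters the nucleus, pairs with Arnt and binds short DNA elements near its target genes. In the lung it is best known for raising the Cyp1 enzymes after exposure to smoke and combustion products. Nrf2, encoded by Nfe2l2, is kept low by Keap1, which marks it for degradation. Oxidants and electrophiles disable Keap1, and Nrf2 then binds antioxidant response elements together with small Maf proteins and raises genes for glutathione and thioredoxin metabolism and for quinone reduction. Bach1 competes for the same elements.

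The promoters of 4 genes are shown because they set genes that changed, Tiparp and Srxn1, beside a gene of each pathway with smaller or less even differences, Cyp1b1 and Gclm. Cyp1a1, the gene with the largest differences, is not shown because no promoter sequence was available for it. Each runs from 250 bases before the annotated start to 20 bases after it, as given by RefSeq for GRCr8: Tiparp at chr2:152063519-152063788, Cyp1b1 at chr6:21094315-21094584, Srxn1 at chr3:161064562-161064831 and Gclm at chr2:213031885-213032154, all on the plus strand. Capitals mark matches to the AhR core GCGTG, to the antioxidant response element core TGACNNNGC, to its variant TGAGNNNGC and to the AP-1 element TGACTCA, on either strand (reverse complements appear as written on the plus strand).
Tiparp: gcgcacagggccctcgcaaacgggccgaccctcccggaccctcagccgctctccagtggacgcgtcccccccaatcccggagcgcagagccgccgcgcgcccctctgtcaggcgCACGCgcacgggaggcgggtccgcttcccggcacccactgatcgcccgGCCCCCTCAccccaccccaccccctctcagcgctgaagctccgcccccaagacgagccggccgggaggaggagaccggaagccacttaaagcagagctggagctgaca
Cyp1b1: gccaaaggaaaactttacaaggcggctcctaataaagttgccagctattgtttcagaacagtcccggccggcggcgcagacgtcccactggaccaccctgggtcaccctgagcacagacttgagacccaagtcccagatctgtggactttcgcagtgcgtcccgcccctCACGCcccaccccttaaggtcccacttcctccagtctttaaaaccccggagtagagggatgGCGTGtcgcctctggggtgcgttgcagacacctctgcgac
Srxn1: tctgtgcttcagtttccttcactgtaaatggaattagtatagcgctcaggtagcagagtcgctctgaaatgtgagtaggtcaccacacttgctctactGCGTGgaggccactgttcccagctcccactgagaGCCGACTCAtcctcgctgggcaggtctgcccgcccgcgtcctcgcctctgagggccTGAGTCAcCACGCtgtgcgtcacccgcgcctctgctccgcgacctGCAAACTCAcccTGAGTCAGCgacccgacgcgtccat
Gclm: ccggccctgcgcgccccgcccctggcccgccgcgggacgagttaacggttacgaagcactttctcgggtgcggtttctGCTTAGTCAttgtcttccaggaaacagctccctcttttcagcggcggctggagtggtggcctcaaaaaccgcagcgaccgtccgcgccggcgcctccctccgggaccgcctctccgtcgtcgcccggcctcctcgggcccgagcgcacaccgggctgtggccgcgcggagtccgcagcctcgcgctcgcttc

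In windows of 300 bases, from 250 before to 50 after the start, 7 of the 8 genes, all but Cyp1a1, matched the promoter table, with 8 windows. The AhR core was present in 29.7% of all 33469 windows of that table, the antioxidant core in 12.1%, its variant in 17.2% and the AP-1 element in 4.63%. Cyp1b1 held 2 AhR cores, beginning at positions -81 and -20 where 0 is the first transcribed base. Tiparp held 1 AhR core at -136 and 1 variant element at -88. Srxn1 held 2 AhR cores, 3 variant elements and 2 AP-1 elements. The variant element of Srxn1 at -5 reads TGAGTCAGC and overlaps an AP-1 element beginning at the same base. Gclm held 1 antioxidant core at -172, and the windows of Nqo1 and Gclc each held 1 AhR core. Of the 2 Txnrd1 windows, 1 held 2 AhR cores and 1 antioxidant core, and the other held none of the 4 motifs. The last 2 motifs were searched after the sequences had been seen. These matches describe letters only.

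Some lungs stood apart in cell content or RNA. Mean log2 levels of 5 ciliated cell markers were 9.29 and 8.20 in sham placebo lungs 2 and 3, against 5.36 to 6.89 in the other 10 lungs. Mean levels of 7 cardiomyocyte markers were at most 2.80 in 9 lungs, but reached 5.62 and 8.70 in lungs 1 and 2 of the sham ketotifen group and 7.65 in lung 3 of the sham placebo group. The 3' minus 5' difference of the beta-actin controls was 4.23 and 3.90 in sham placebo lungs 2 and 3 and 4.52 in sham ketotifen lung 2, and 2.90 to 3.45 in the others. The number of probe sets at a log2 value of 4 or more was between 15809 and 16056 per array. Mean levels of 7 alveolar type 2 markers were 12.8 to 13.8 in all lungs, so the labelled tissue showed its epithelial markers. In whole lung, fewer cells of a type and less RNA per cell cannot be told apart.

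A probe set was tested where it reached a log2 value of 4 in at least 3 of the 12 arrays, which kept 11 of the 13. Cyp1a1 and 1 probe set of Srxn1 passed solely through the 3 CHF ketotifen lungs, so counts over the probe sets kept describe these genes and support nothing by themselves. Differences were tested with limma over all 16536 probe sets kept, and probe sets with an adjusted p below 0.05 (Benjamini-Hochberg) were called.

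Cyp1a1, a monooxygenase that oxidizes polycyclic aromatic hydrocarbons and the most inducible AhR target, was near background outside the CHF ketotifen group. Its log2 levels (probe set 1370269_at) were 2.33, 2.15 and 2.36 in sham placebo lungs and 2.13, 2.11 and 2.13 in CHF placebo lungs. They were 3.82, 2.13 and 2.87 in sham ketotifen lungs and 6.41, 6.46 and 7.98 in CHF ketotifen lungs. The CHF ketotifen lungs did not overlap with any other lung, and sham ketotifen lung 1 was the highest of the other 9. Within CHF, Cyp1a1 was 4.83 ± 0.45 higher with ketotifen (log2 difference ± SE, 28.4-fold, n = 3 and 3, limma adjusted p = 0.000383). Under ketotifen it was 4.01 higher in CHF than in sham lungs (adjusted p = 0.00106). These values flatten at about 2, so the size of such a fold is uncertain. With values under 4 set to 4, the difference within CHF was 2.95 (adjusted p = 0.00107).

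Tiparp, an ADP-ribosyltransferase that is induced by the AhR and represses it in turn, was well above background in all lungs. Probe set 1374446_at read 8.52, 8.13 and 8.10 in sham placebo lungs, 8.48, 8.46 and 8.42 in CHF placebo lungs, 8.57, 8.33 and 8.38 in sham ketotifen lungs, and 10.32, 10.09 and 10.52 in CHF ketotifen lungs. The other 3 groups lay close together and every CHF ketotifen lung was above them. The difference between ketotifen and placebo in CHF was 1.86 ± 0.15 (3.62-fold, adjusted p = 0.000133, limma), and between CHF and sham under ketotifen 1.88 ± 0.15 (adjusted p = 7.92e-05).

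The brighter Tiparp probe set, 1385407_at, had a wider spread. It read 8.83, 9.16 and 9.03 in sham placebo lungs, 8.94, 9.24 and 9.81 in CHF placebo lungs, 8.55, 9.89 and 9.16 in sham ketotifen lungs, and 10.67, 10.45 and 10.93 in CHF ketotifen lungs. Again no other lung reached the CHF ketotifen lungs. The probe sets differed in their calls: for the drug in CHF the difference was 1.36 ± 0.31 with an adjusted p of 0.0627, and for CHF under ketotifen it was 1.48 ± 0.31 with an adjusted p of 0.0155 (limma). The second call was lost without CHF ketotifen lung 3, the lung with the highest value.

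Cyp1b1, a monooxygenase of aromatic hydrocarbons and estrogens found in many cell types outside the liver, varied most within groups. Its levels were 6.01, 5.99 and 6.86 in sham placebo lungs, 5.27, 5.31 and 5.26 in CHF placebo lungs, 5.53, 6.34 and 4.19 in sham ketotifen lungs, and 7.14, 6.11 and 7.60 in CHF ketotifen lungs. CHF placebo lungs were the most uniform and lay below both sham placebo and CHF ketotifen lungs without overlap. The difference was 1.67 ± 0.51 for the drug in CHF (3.18-fold, 95% interval 0.55 to 2.79, adjusted p = 0.131) and -1.01 ± 0.51 for CHF against sham with placebo (adjusted p = 0.295), neither passing the limma threshold. Under ketotifen, CHF ketotifen lung 2 lay below sham ketotifen lung 2, and the difference of 1.60 ± 0.51 did not pass (adjusted p = 0.0613).

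Srxn1, sulfiredoxin, which restores overoxidized peroxiredoxins, was the Nrf2 target with the largest difference. Probe set 1372510_at read 2.62, 2.79 and 2.63 in sham placebo lungs, 2.83, 2.67 and 2.69 in CHF placebo lungs, 2.30, 2.11 and 2.09 in sham ketotifen lungs, and 4.77, 5.16 and 4.42 in CHF ketotifen lungs. All CHF ketotifen lungs were above all others, while the sham ketotifen lungs were below both placebo groups. The difference was 2.06 ± 0.20 for the drug in CHF (4.16-fold, adjusted p = 0.000465) and 2.62 ± 0.20 for CHF under ketotifen (6.15-fold, adjusted p = 6.07e-05, limma). With values under 4 set to 4, the difference for the drug in CHF was 0.79 (adjusted p = 0.0396), and for CHF under ketotifen also 0.79 (adjusted p = 0.0141), so most of either fold rests on values near background.

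The other probe sets of Srxn1 were not kept. Probe set 1381067_at stayed between 2.46 and 2.54 in all lungs. Probe set 1384331_at was between 2.28 and 2.39 in the 9 lungs outside the CHF ketotifen group and 2.61, 3.09 and 2.76 in that group. The CHF ketotifen lungs were thus the highest on this probe set too, at levels too low for the test.

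Txnrd1, cytosolic thioredoxin reductase, which keeps thioredoxin reduced, had the next most even pattern. Probe set 1398791_at read 8.53, 8.71 and 8.60 in sham placebo lungs, 8.69, 8.74 and 8.36 in CHF placebo lungs, 8.48, 8.27 and 8.84 in sham ketotifen lungs, and 9.14, 9.12 and 9.16 in CHF ketotifen lungs. The CHF ketotifen lungs were nearly equal and above all others. The difference was 0.54 ± 0.16 for the drug in CHF (1.46-fold, adjusted p = 0.116) and 0.61 ± 0.16 for CHF under ketotifen (1.52-fold, adjusted p = 0.0318, limma). The latter call was lost under 12 of 26 other settings, among them the fits without sham placebo lung 3, sham ketotifen lung 1 or 2, or any of the 3 CHF ketotifen lungs.

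The dimmer Txnrd1 probe set, 1386958_at, read 7.47, 7.03 and 7.07 in sham placebo lungs, 7.71, 7.56 and 7.19 in CHF placebo lungs, 7.78, 6.23 and 7.67 in sham ketotifen lungs, and 8.13, 7.99 and 8.48 in CHF ketotifen lungs. The CHF ketotifen lungs were again above all others, and 1 sham ketotifen lung was low. Its differences of 0.71 ± 0.35 (adjusted p = 0.329) and 0.97 ± 0.35 (adjusted p = 0.0904) passed the limma threshold in neither comparison.

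Gclc and Gclm, the catalytic and the modifier subunit of glutamate-cysteine ligase, which carries out the limiting step of glutathione synthesis, did not pass the test in any comparison of the fit reported. The brighter Gclc probe set, 1372523_at, read 6.44, 7.37 and 7.22 in sham placebo lungs, 6.60, 6.73 and 6.86 in CHF placebo lungs, 6.97, 6.54 and 6.52 in sham ketotifen lungs, and 7.20, 7.04 and 7.15 in CHF ketotifen lungs. CHF ketotifen lungs lay above CHF placebo and sham ketotifen lungs but within the sham placebo range. The difference for the drug in CHF was 0.40, with a 95% interval from -0.11 to 0.91 (limma adjusted p = 0.402).

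The dimmer Gclc probe set, 1370688_at, read 5.24, 5.24 and 5.75 in sham placebo lungs, 5.26, 5.06 and 5.16 in CHF placebo lungs, 5.09, 4.75 and 5.04 in sham ketotifen lungs, and 5.79, 5.23 and 6.06 in CHF ketotifen lungs. It differed by 0.54 for the drug in CHF (adjusted p = 0.271) and by 0.74 for CHF under ketotifen (adjusted p = 0.0599, limma). The latter passed the threshold without CHF ketotifen lung 2 and with either quantile normalization or median centring of the arrays. Gclm read 7.52, 7.28 and 7.74 in sham placebo lungs, 7.74, 7.53 and 7.69 in CHF placebo lungs, 7.14, 7.92 and 7.78 in sham ketotifen lungs, and 7.89, 8.02 and 7.69 in CHF ketotifen lungs. Its groups overlapped throughout, with a difference for the drug in CHF of 0.21 and a 95% interval from -0.24 to 0.67 (adjusted p = 0.639).

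Nqo1, the quinone reductase that is a standard readout of Nrf2 and is also known to respond to the AhR, was among the brightest of the 8 genes and did not pass the test. It read 9.05, 10.29 and 9.55 in sham placebo lungs, 9.56, 9.18 and 8.82 in CHF placebo lungs, 9.15, 9.30 and 9.12 in sham ketotifen lungs, and 9.42, 10.04 and 9.80 in CHF ketotifen lungs. The highest of the 12 lungs was sham placebo lung 2, which also had the highest ciliated marker mean. Whether airway content had a part in this value was not tested. The difference for the drug in CHF was 0.56 ± 0.29 (95% interval -0.08 to 1.21, limma adjusted p = 0.349).

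**Figure D1:**
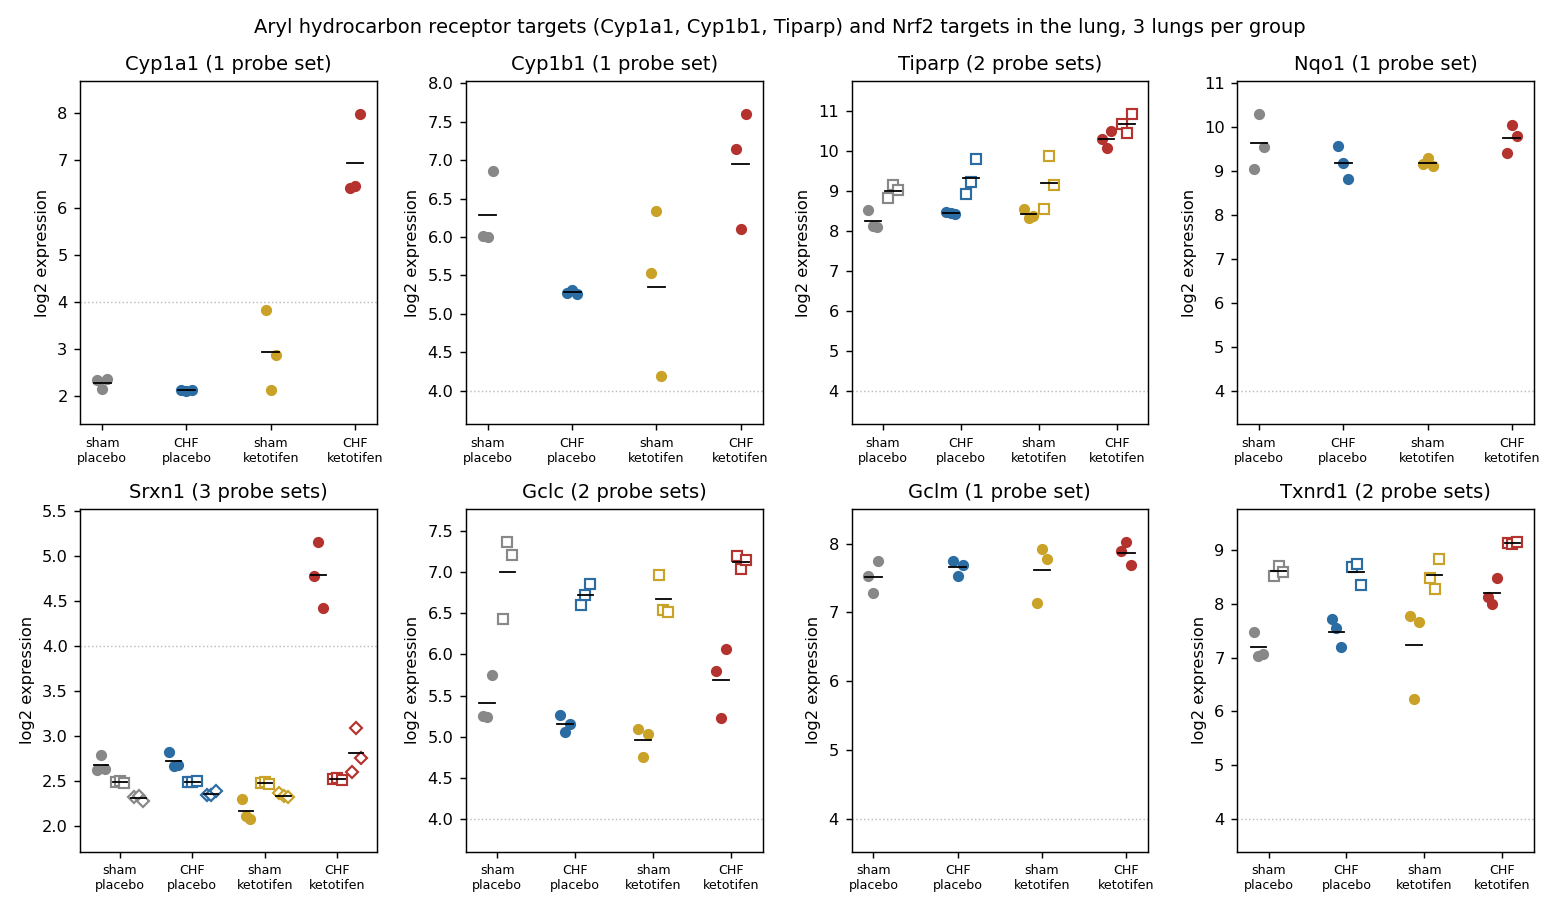
Log2 expression of every probe set of the 8 genes in each lung, with 1 point per lung, a bar at the mean of the 3 lungs of a group, marker shapes for the probe sets of a gene, and a dotted line at the filter value of 4. The y axes differ between panels and do not start at 0. The CHF ketotifen lungs are separate from all others for Cyp1a1, both Tiparp probe sets, both Txnrd1 probe sets and Srxn1, of which the probe set kept is at 4.42 to 5.16 and the others are near background, and overlap other groups for Nqo1 and Gclm.

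In heart failure without the drug, none of the 11 probe sets kept was called, where 0.169% of all 16536 probe sets were called in either direction (limma). At an unadjusted p under 0.05 the count of the 11 was 0 as well. Differences ranged from -1.01 for Cyp1b1 to 0.32 for Tiparp. The median over the 3 AhR genes, taking the brightest probe set of each, was -0.16, and over the 5 Nrf2 genes -0.02, beside 0.02 over all probe sets kept.

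For the drug in sham rats, 0 of the 11 were called, with 0.0847% called in either direction over the array (limma). The 1 probe set at an unadjusted p under 0.05 was that of Srxn1, which was -0.52 ± 0.20 against placebo (adjusted p = 0.302) at levels near background. Cyp1a1 differed by 0.66 ± 0.45 (95% interval -0.34 to 1.65, adjusted p = 0.541) and Cyp1b1 by -0.94 ± 0.51 (adjusted p = 0.435). The medians were 0.19 over the AhR genes and -0.33 over the Nrf2 genes.

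For the drug in CHF rats, 3 of the 11 probe sets were called higher, 1 each of Cyp1a1, Tiparp and Srxn1, where 0.822% of all probe sets were called higher. All 11 differences were positive, from 0.21 for Gclm to 4.83 for Cyp1a1. In 8 of the 11 every CHF ketotifen lung was above every CHF placebo lung, which held for 9.86% of all probe sets kept. Cyp1a1 and the Srxn1 probe set were kept solely through the CHF ketotifen lungs, so the filter fixed this order for both. Both are also among the probe sets called here, for CHF under ketotifen and for the interaction. The counts beside these shares are therefore a description only. The median difference was 1.67 over the AhR genes and 0.54 over the Nrf2 genes, beside -0.04 over all probe sets kept.

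For CHF against sham under ketotifen, 5 of the 11 were called higher, the same 3 probe sets with the second of Tiparp and 1 of Txnrd1, where 6.36% of all were called higher. The medians were 1.60 over the AhR genes and 0.56 over the Nrf2 genes, beside -0.03 over all. This comparison shares the CHF ketotifen lungs with the previous one, so the calls in both are not independent of each other.

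**Figure D2:**
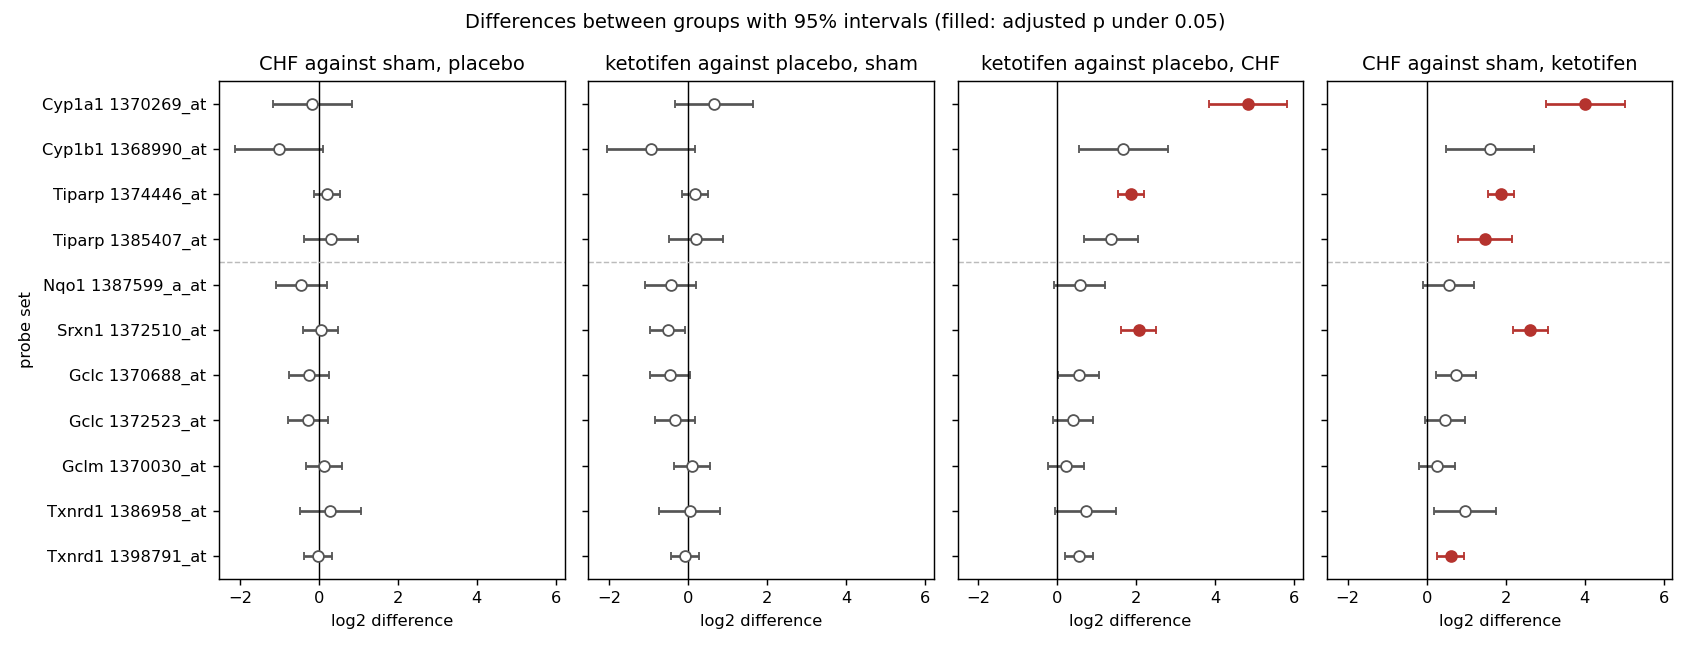
Log2 differences of the 11 probe sets kept in 4 comparisons, with 95% intervals from the limma fit. Filled points have an adjusted p under 0.05, and the dashed line separates AhR targets, above, from Nrf2 targets. No point is filled in the 2 comparisons on the left, 3 are filled for the drug in CHF and 5 for CHF under ketotifen.

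The drug effect differed between CHF and sham rats for 3 of the 11 probe sets in the interaction test of limma, where 0.254% of all probe sets were called higher. The drug effect in CHF exceeded that in sham rats by 4.17 ± 0.64 for Cyp1a1 (adjusted p = 0.0241), by 2.57 ± 0.28 for Srxn1 (adjusted p = 0.00223) and by 1.68 ± 0.21 for Tiparp 1374446_at (adjusted p = 0.00763). For Cyp1b1 it was 2.60 (adjusted p = 0.217) and for Nqo1 1.00 (adjusted p = 0.430). The Cyp1a1 call was lost in 8 of 25 other settings, among them the fits that left out lung 2 or 3 of either placebo group or lung 3 of the sham ketotifen group, with adjusted p up to 0.356 over all settings. With values under 4 set to 4, the difference was 2.95 for Cyp1a1 (adjusted p = 0.0241) and 0.79 for Srxn1, whose call was lost (adjusted p = 0.225). The Srxn1 call was also lost without sham placebo lungs 2 and 3 (2.51, adjusted p = 0.0608). Without the 3 sham lungs of high cardiomyocyte signal none of the 3 calls remained, although the differences were 4.20, 2.68 and 1.80 (adjusted p = 0.356, 0.202 and 0.252).

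Within the CHF ketotifen group, all 4 AhR probe sets were highest in lung 3, and the 3 of them from Tiparp and Cyp1b1 were lowest in lung 2. Of the 7 Nrf2 probe sets kept, 3 were highest in lung 2, 3 in lung 3 and 1 in lung 1. The Srxn1 probe set kept was highest in lung 2 and lowest in lung 3, where Cyp1a1 was highest. With 3 lungs this is a description and was not tested.

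Of the regulators, Nfe2l2, the gene of Nrf2 itself, rose in the same lungs. It read 10.48, 10.38 and 10.33 in sham placebo lungs, 10.08, 10.08 and 10.15 in CHF placebo lungs, 10.16, 10.30 and 10.29 in sham ketotifen lungs, and 10.86, 10.94 and 11.16 in CHF ketotifen lungs. The CHF ketotifen lungs were above all others and the CHF placebo lungs the lowest. The difference was 0.89 ± 0.11 for the drug in CHF (1.85-fold, adjusted p = 0.00221), 0.74 ± 0.11 for CHF under ketotifen (adjusted p = 0.00349) and 1.03 ± 0.15 for the interaction (adjusted p = 0.0182, limma). Without the 3 sham lungs of high cardiomyocyte signal the call for CHF under ketotifen was lost (0.70, adjusted p = 0.179). The interaction call was lost without sham placebo lung 3, CHF placebo lung 2, sham ketotifen lung 1 or CHF ketotifen lung 3. It was also lost without those 3 sham lungs and without sham placebo lungs 2 and 3, fits that left 1 lung in a group. The interaction difference stayed between 0.95 and 1.12 over all settings.

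Ahr, the receptor gene, did not follow its targets. It read 5.12, 5.16 and 4.86 in sham placebo lungs, 5.78, 6.13 and 5.25 in CHF placebo lungs, 6.35, 6.23 and 5.91 in sham ketotifen lungs, and 6.10, 5.68 and 5.72 in CHF ketotifen lungs. Its highest group was sham ketotifen, 1.12 ± 0.23 above sham placebo without overlap (limma adjusted p = 0.114). Ahr was called higher there when sham placebo lung 1 was left out, in a fit that called 4.37% of all probe sets in place of 0.0847%. For the drug in CHF the difference of Ahr was 0.11 (adjusted p = 0.849, limma). Arnt, the partner of the AhR, was near background at 2.66 to 4.53 and differed by 0.09 for the drug in CHF (limma adjusted p = 0.953).

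The repressor of the AhR, Ahrr, at 2.00 to 2.09, and Cyp1a2, the Cyp1 enzyme typical of liver, at 2.08 to 2.16, stayed at background in every lung, CHF ketotifen lungs included. Aldh3a1, an aldehyde dehydrogenase under AhR control, was at 2.49 to 3.51. Of 11 further genes of the AhR pathway, 9 were on the array, 6 were kept and 0 were called in any comparison (limma). Cyp2s1, a Cyp gene listed as a further AhR target, was 1 of the 6, with its lowest group mean, 4.68, in CHF ketotifen lungs. Its difference was -2.73 for CHF against sham with placebo (limma adjusted p = 0.126) and -2.09 under ketotifen (adjusted p = 0.106). Cyp2s1 read 5.75, 9.83 and 8.46 in sham placebo lungs and 5.67, 5.62 and 4.56 in CHF placebo lungs. Sham placebo lungs 2 and 3, the highest, also had the highest ciliated marker means. Whether airway content had a part in the Cyp2s1 values was not tested. Between ketotifen and placebo in CHF, Cyp2s1 differed by -0.60 (limma adjusted p = 0.749). For the drug in CHF 1 of the 6 had an unadjusted p under 0.05, Hsp90ab1, the chaperone of the receptor, with a difference of -0.69 (adjusted p = 0.130). The median of the 6 was -0.04, equal to that over all probe sets kept.

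Of 9 genes that regulate Nrf2 or pair with it, 8 were kept. For the drug in CHF 1 of the 8, Nfe2l2, was called higher and 0 lower. Under ketotifen 2 were called higher in CHF, Nfe2l2 and the small Maf gene Maff, by 1.40 (adjusted p = 0.0276, limma), beside 6.36% of all probe sets. Dimmer probe sets of other regulators were called there too, 1393343_at of Cul3 with a difference of -1.07 (adjusted p = 0.00878) and 1389381_at of Sqstm1 with 1.15 (adjusted p = 0.0422), while the brighter ones were not. The Maff call was lost without lung 1 or 3 of the sham ketotifen or of the CHF ketotifen group. Keap1 differed by -0.06 for the drug in CHF on its brighter probe set (adjusted p = 0.844), and Bach1 was at 2.25 to 2.33 in all lungs.

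A further 29 Nrf2 target genes were listed, of which 22 were on the array and 21 were kept. For the drug in CHF 0 of the 21 were called and 6 had an unadjusted p under 0.05 (limma). The median difference was 0.06, and 12 of the 21 differences were positive. Of the 6, Ugdh, Hmox1 and Pgd were higher, by 0.80, 1.65 and 0.67. Abcc1, Gsta1 and Abcc4 were lower, with differences of -0.48, -0.64 and -1.16. The nearest to a call was Ugdh, which makes UDP-glucuronate for conjugation. It read 8.48, 8.17 and 7.82 in CHF placebo lungs and 8.99, 8.86 and 9.00 in CHF ketotifen lungs, without overlap, a difference of 0.80 ± 0.17 (adjusted p = 0.0525). Of the 21, only genes called in some comparison of the fit reported were followed in other settings, so Gsta1 and Abcc4 were not. Among those followed, Ugdh, Hmox1, Pgd and Taldo1 passed the test as higher without CHF placebo lung 1, Hmox1 by 2.38. Abcc1 passed as lower there, in a fit that called 7.37% of all probe sets in place of 1.22%.

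For CHF against sham under ketotifen 5 of the 21 rose and 2 fell, where 6.36% of all probe sets were called higher and 6.61% lower. Those that rose were Hmox1, heme oxygenase 1, by 3.60 (12.1-fold, adjusted p = 0.00579), and Taldo1, Pgd and Tkt, enzymes of the pentose phosphate pathway that supplies NADPH, by 1.22, 1.14 and 0.88, with Ugdh by 0.97 (limma). Those that fell were the efflux pump Abcc1, by 0.47, and the glutathione peroxidase Gpx2, by 0.76 (adjusted p = 0.0471 and 0.0459). The median over the 21 was 0.11. Leaving out the 3 sham lungs of high cardiomyocyte signal ended all 7 calls, and leaving out CHF ketotifen lung 2 ended those of Taldo1, Pgd, Tkt, Abcc1 and Gpx2. The Pgd call was also lost without sham ketotifen lung 1. The calls of Tkt, Abcc1 and Gpx2 held in 6, 2 and 3 of the 12 fits that left out 1 lung.

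Hmox1 was the further target with the widest spread. It read 7.18, 6.04 and 6.94 in sham placebo lungs, 10.25, 8.27 and 7.83 in CHF placebo lungs, 6.04, 7.01 and 7.46 in sham ketotifen lungs, and 10.57, 10.75 and 9.97 in CHF ketotifen lungs. Every CHF placebo lung was above every sham lung. The difference for CHF against sham with placebo was 2.06 ± 0.58 (4.18-fold, limma adjusted p = 0.123), beside 1.65 ± 0.58 for the drug in CHF (adjusted p = 0.186). CHF placebo lung 1 was the highest of its group and overlapped the CHF ketotifen lungs. That lung had a macrophage marker mean of 9.91 against 8.66 and 8.74 in the other CHF placebo lungs, and Pgd, Tkt and Taldo1 were likewise highest there within the CHF placebo group. Macrophages are a main site of Hmox1 in the lung. Their part in these values was not tested. Of the 21 further targets kept, 0 were called for CHF against sham with placebo, and 8 had an unadjusted p under 0.05. Those of smallest p were Osgin1 and Ephx1, with differences of -1.34 and -1.33 (limma adjusted p = 0.102 and 0.111), followed by Hmox1. Gsta1, Gsta3 and Gstm1 were also lower, and Taldo1 and Blvrb were higher. Of all 21 differences 12 were positive.

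**Figure D3:**
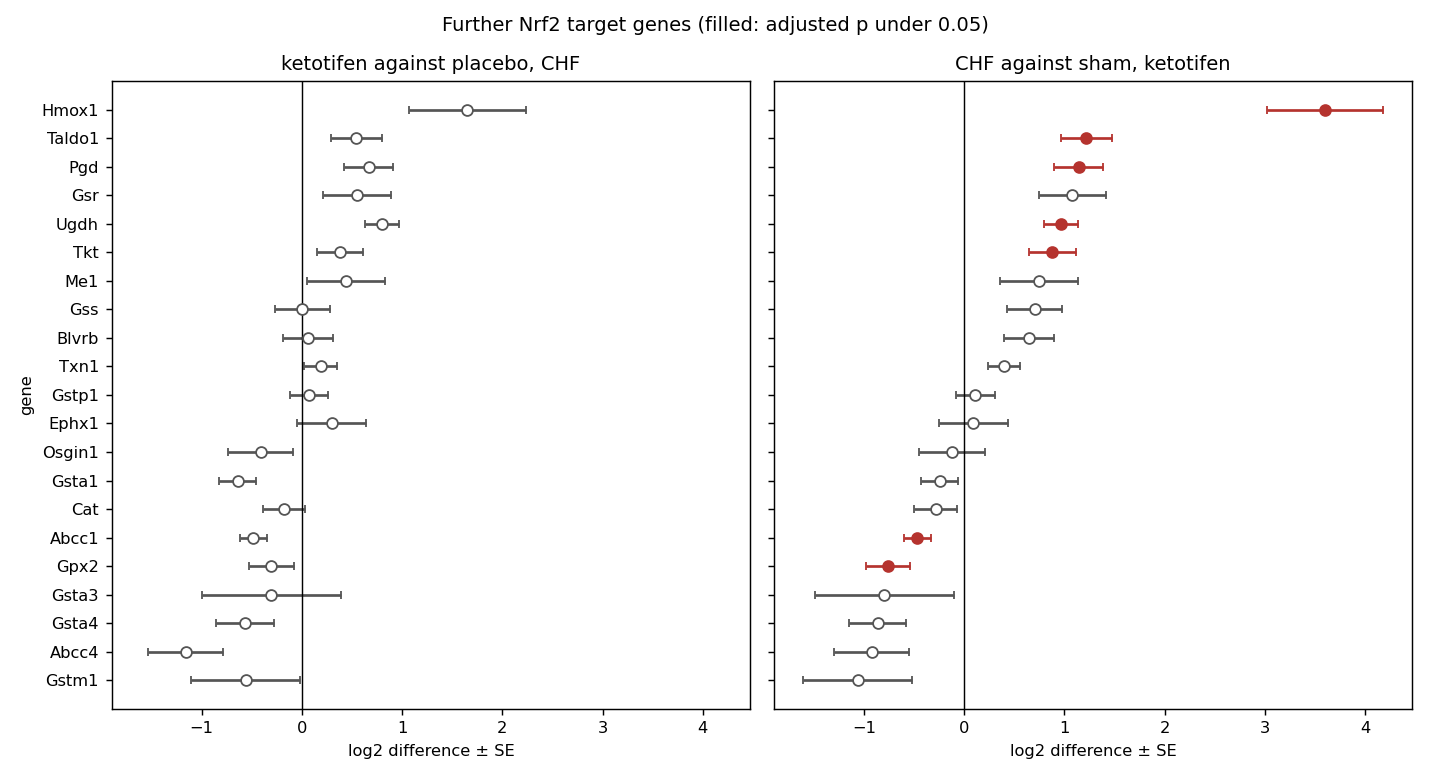
Log2 differences, with SE, of the 21 further Nrf2 target genes kept, for the drug in CHF (left) and for CHF under ketotifen (right), with 1 row per gene in the same order. Filled points have a limma adjusted p under 0.05. No point is filled on the left, and 5 higher and 2 lower points are filled on the right, led by Hmox1 at 3.60.

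Other groups of genes moved in the same 3 lungs. The mean level of 16 inflammatory cytokine genes was 7.71 to 8.48 in CHF ketotifen lungs and 4.30 to 5.06 in the other 9, and 11 of the 14 kept were called higher for the drug in CHF, beside 0.822% of all probe sets. The mean of 14 immediate early genes, which answer within minutes to stimulation or handling, was 9.90 to 10.28 against 7.98 to 8.83, and 6 of the 14 were called higher. Csf3 and Lif were below 4 in every lung.

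Cell markers also differed. The mean of 8 macrophage markers was 10.00 to 10.19 in CHF ketotifen lungs, 8.66 to 9.91 in CHF placebo lungs and 6.73 to 8.33 in sham lungs, with 0 of 8 called for the drug in CHF and 4 at an unadjusted p under 0.05. Neutrophil markers averaged 5.55 to 6.93 in CHF ketotifen lungs against 4.23 to 5.68 in CHF placebo lungs, with 1 of 4 called and Cxcr2 below 4 in all lungs. Club cell markers, a site of Cyp enzymes in the airway, averaged 6.49 to 7.33 in CHF ketotifen lungs, the lowest of the 4 groups, and endothelial markers 10.25 to 10.68 against 10.42 to 11.23 in CHF placebo lungs. Under ketotifen, 7 of 8 macrophage markers were called higher in CHF than in sham lungs, and 1 of 4 neutrophil markers (limma). Called lower there were 5 of 7 endothelial markers, with 1 called higher, and 3 of 5 club cell markers. Of all probe sets, 6.36% were called higher and 6.61% lower in that comparison. The part of these cells and of the immediate early response in the values of the 8 genes was not tested.

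**Figure D4:**
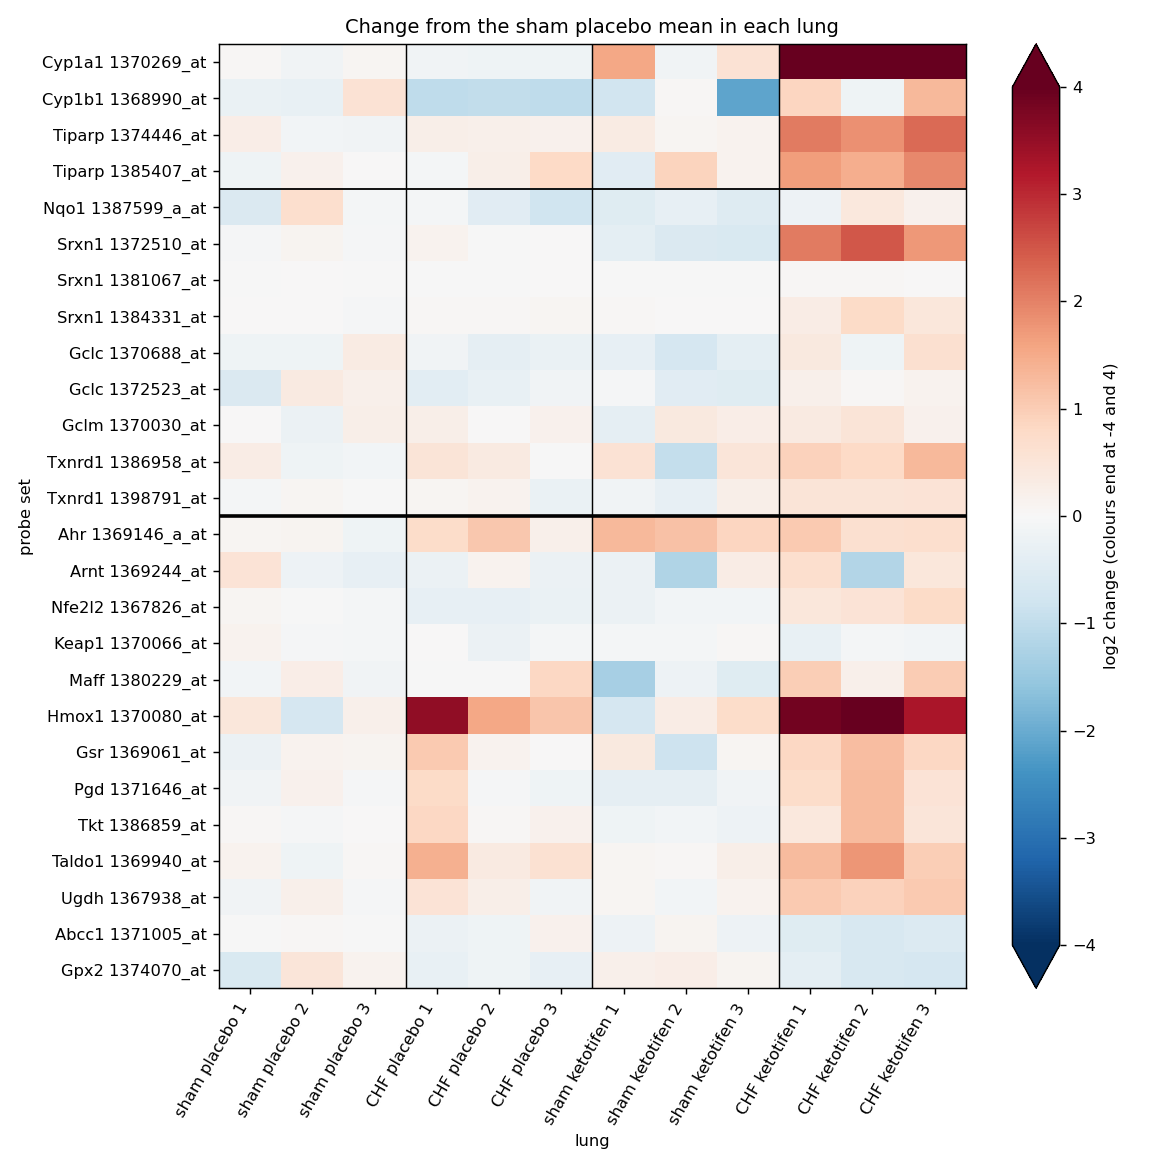
Log2 change from the sham placebo mean in each of the 12 lungs (columns) for the 13 probe sets of the 8 genes, above the thick line. Below it are 13 chosen regulators and further Nrf2 targets, not all that were kept. Among those not shown, Gsta1, Gsta3, Gstm1, Ephx1, Osgin1 and Abcc4 had a lower mean in CHF ketotifen than in sham placebo lungs. Txn1 and Blvrb, also not shown, had a higher one. Red is higher and blue lower, and colours end at -4 and 4. The 3 CHF ketotifen columns are red for Cyp1a1, Tiparp and 1 Srxn1 probe set, and Hmox1 is also higher in the CHF placebo lungs, most in lung 1.

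The genes of most similar pattern were found by the root-mean-square difference of log2 values centred on each gene, over 12 arrays and 13031 probe sets of 1 symbol (13030 for genes with a second probe set). For Cyp1a1, whose own root-mean-square deviation was 2.04, they were Gfpt2 (0.62), Cxcl1 (0.71), Ptgs2 (0.74), Adamts4 (0.77) and Fosb (0.80). For Tiparp, with a deviation of 0.75, they were Rgs2 (0.26), Rnd3, Junb, Procr and Milr1 (0.36), and for Srxn1, with 1.02, Ier3 (0.30), Slc16a3, Depdc1, Osm and Myc (0.34). Each of these had its highest group mean in CHF ketotifen lungs, which follows from their choice by pattern over the same arrays. For Nqo1, with a deviation of 0.41, the most similar were Rbm15 (0.20), Pfkl, Hspg2, Swap70 and Naxd (0.22), and for Gclc, with 0.30, Dpt (0.18), Isca1, Atf1, Brwd3 and Etnk1 (0.21).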

How the data were processed

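RNA of 12 rat lungs was hybridized to 1 array each, and groups follow the labelled source names. The authors deposited log2 expression values, 1 per probe set. According to the submitters' processing notes these came from GCRMA (R 2.5.0), which removes a modelled background, so that values flatten near 2. Its settings and any batch are not given, and scanner files were not used here.

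Of 31099 probe sets, 57 controls were left out. Of the other 31042, 20826 had 1 platform symbol, 436 several and 9780 none. The 16536 with log2 of at least 4 in at least 3 arrays were tested, two-sided, with limma 3.58.1 in R 4.3.3, in 1 fit of 12 arrays with 4 group means and an intensity trend (8 residual degrees of freedom), adjusted by Benjamini-Hochberg. Standard errors and 95% intervals are those of the moderated fit. The script was tested on simulated data. With 3 arrays per group, their number limits the precision. The p-values set each difference against the spread between lungs within groups, taken as 1 value over the 4 groups and moderated across probe sets.

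All probe sets of the 8 genes are named. Other lists were read by the brightest probe set of each gene. Of the receptor, regulator and further target lists, genes called are named, with Ahr, Arnt, Ahrr, Nfe2l2, Keap1 and Bach1. Genes of small p that were not called are named in some comparisons only. The cytokine, immediate early and cell marker lists are given mainly as counts and means. The 8 genes and the lists were chosen with earlier results of these data known. Alternatives changed the filter, scaling, variance model, covariates and lungs, and 1 more, setting values under 4 to 4, was chosen after seeing the data.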

Additional observations from a re-analysis of the deposited data

Results flagged for a closer look

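A group of 3 probe sets had a drug effect in CHF rats that differed from that in sham rats by limma's interaction test. The log2 drug effect in CHF minus that in sham rats was 4.17 for Cyp1a1, 2.57 for Srxn1 and 1.68 for Tiparp 1374446_at. Cyp1a1 and Srxn1 were near background outside the CHF ketotifen lungs, and with values under 4 set to 4 the differences were 2.95 and 0.79, the latter no longer called (limma adjusted p = 0.225).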

How the results depend on the processing

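In CHF with the drug against placebo, and in CHF against sham under ketotifen, Cyp1a1 and Tiparp 1374446_at were called under all 26 alternatives and Srxn1 under the 25 that kept it. No difference of the 8 genes that was called in limma reversed. Array weights, which ranged from 0.377 to 3.72, raised the number of the members' probe sets called from 0 to 1 for CHF against sham with placebo, from 3 to 8 for the drug in CHF, from 5 to 9 for CHF under ketotifen and from 3 to 7 for the interaction. They also raised the calls over the array, from 201 to 4134 for the drug in CHF. Leaving out the 3 sham lungs with cardiomyocyte signal gave 3 in place of 5 for CHF under ketotifen and 0 in place of 3 for the interaction, and fewer samples and fewer calls over the array (43 and 3) went with it. Leaving out sham placebo lungs 2 and 3 gave 1 for the interaction. Leaving out 1 lung gave 3 to 5 for CHF under ketotifen, the lowest without CHF ketotifen lung 3, 3 to 4 for the drug in CHF and 2 to 3 for the interaction.

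Calls over the array moved more than those of the members. Over the alternatives other than array weights they ranged from 0 to 1496 for CHF against sham with placebo (28 in the fit reported), from 60 to 1219 for the drug in CHF (201), from 43 to 2773 for CHF under ketotifen (2145), from 0 to 722 for the drug in sham rats (14) and from 3 to 303 for the interaction (61). For the drug in CHF the highest count was without CHF placebo lung 1. The median of all probe sets moved by under 0.1 with either scaling.

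Lungs with the same replicate number were not treated as paired in the fit reported. Over 18 pairs of lungs with the same number the correlation of deviations ran from -0.35 to 0.26. Lungs of different number were not compared, so this range cannot tell whether the numbers pair the samples. With the replicate number as a block, 0, 3, 5, 0 and 3 members' probe sets were called in the 5 comparisons, the same counts as without it. For CHF under ketotifen the block added Gclc 1370688_at (adjusted p = 0.0431). It ended the Txnrd1 call there (adjusted p = 0.0542) and the interaction call of Nfe2l2, and 145 in place of 201 probe sets were called over the array for the drug in CHF.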
